A study of Mus musculus with 8 samples.

Results

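Mouse thyroid follicular cell organoids (TFCOs) were compared with mouse thyroid tissue by bulk mRNA sequencing. The members were chosen by their sample titles alone: 4 TFCO libraries and 2 thyroid tissue libraries, 6 of the 8 libraries in the series. The other 2 libraries were lung tissue. They entered the tests to estimate the spread, and their values also counted in the filter that chose the genes tested. All animals were wild type C57BL/6, and the methods name surplus material from females as the source of the organoids. The TFCOs were line mThy14 and line mThy16, each at an early and a late passage. A line came from the gland of a single mouse, which was digested with collagenase and plated in basement membrane extract, so that both passages of a line share an animal. The TFCO medium held forskolin (which raises cAMP), an R-spondin (which strengthens Wnt signals), the TGF-beta receptor inhibitor A83-01, EGF and FGF10, and neither TFCOs nor tissue received a further treatment. Thyroid tissue was whole tissue, in which follicular cells lie beside stroma, vessels and C cells, and a dissected gland can carry parathyroid, muscle and fat. The study used thyroid and lung tissue as the reference against which the organoids were set, and the comparison with thyroid tissue asks which follicular programmes the cultured epithelium holds and which parts of the gland it lacks.

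Thyroid follicular cells take up iodide at their base, pass it to the lumen, and attach it to thyroglobulin with peroxide made at the apical membrane by dual oxidases. The iodinated thyroglobulin is stored as colloid, taken back into the cell, and cut by lysosomal proteases to release thyroid hormone. Thyrotropin drives this work through its receptor and cAMP, and the transcription factors Pax8, Foxe1 and Hhex mark the lineage. Because thyroglobulin is a very large secreted glycoprotein, follicular cells also carry a heavy load of protein folding in the endoplasmic reticulum.

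Values are normalized counts, that is, reads per gene divided by 1 size factor per library, and they are given for the TFCO libraries in the order early mThy14, late mThy14, early mThy16 and late mThy16, and for the tissues in the order thyroid tissue 1 and thyroid tissue 2. The libraries held between 9755081 and 16904865 reads on genes, so that 1 read was worth between 0.674 and 1.41 normalized counts. For the tests, the passages of each line were averaged on the log2(normalized count + 1) scale, which left 2 lines against 2 tissues. A log2 difference is the mean of the lines minus the mean of the tissues on that scale, with its standard error (SE), and understates the change of weakly expressed genes. Genes were said to rise or fall in TFCOs where limma's adjusted p over all 14703 genes tested was under 0.05. The libraries fell into 2 sets across their groups: 60 genes were listed at 0 throughout one set and at 50 or more throughout the other, with thyroid tissue 2 and both lung tissues in one set and the TFCOs and thyroid tissue 1 in the other. Calls against thyroid tissue 1 alone are therefore given for most lists that hold calls and for the called genes described. The plot of list medians shows both differences. The fit to thyroid tissue 1 has 1 thyroid library, whose spread was assumed to match that of the other groups. It shares its lines, thyroid tissue 1 and the lung tissues with the first fit, so it is not an independent check. The thyroid tissues themselves lay 1 or more apart on the log2 scale for 6710 of the 14703 genes (45.6%).

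More genes fell than rose in TFCOs, and of 103 listed genes that fell, 80 were markers of other cell types of the gland. In TFCOs 88 genes were higher (0.599% of those tested) and 448 were lower (3.05%), 3.65% in all, and against thyroid tissue 1 alone 23 were higher (0.156%) and 138 lower (0.939%), 1.10% in all. Of the 536 genes called against both tissues, 149 (27.8%) were also called in the same direction against thyroid tissue 1 alone, and these made up 92.5% of the 161 calls there. All 536 differed from thyroid tissue 1 in the same direction by at least 1 on the log2 scale. The number of calls rested on single libraries: it was 161 without thyroid tissue 2, 4085 without thyroid tissue 1, 156 and 153 without lung tissue 1 or lung tissue 2, and 124 without both lung tissues. Of 76 called genes named here, 40 lost the call without lung tissue and 38 without thyroid tissue 2, and none turned direction in these fits. Follicular, stromal, metabolic, stress and epithelial programmes were then described by 40 gene lists with 725 distinct members tested. The counts of calls in each list are to be read against the shares of all genes, 0.599% higher and 3.05% lower. The lists were chosen with earlier results of these data known, so these shares describe the lists and are not tests. Tg, the defining product of follicular cells, took between 12.0% and 17.2% of all normalized counts in thyroid tissue and between 0.0787% and 0.922% in TFCOs, with a log2 difference of -5.87 (SE 1.31) that did not pass the threshold (adjusted p = 0.062). The median log2 difference over all genes tested was 0.05 and it was 0.02 against thyroid tissue 1. In bulk RNA, fewer cells of a type and less RNA per cell cannot be told apart.

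**Figure D1:**
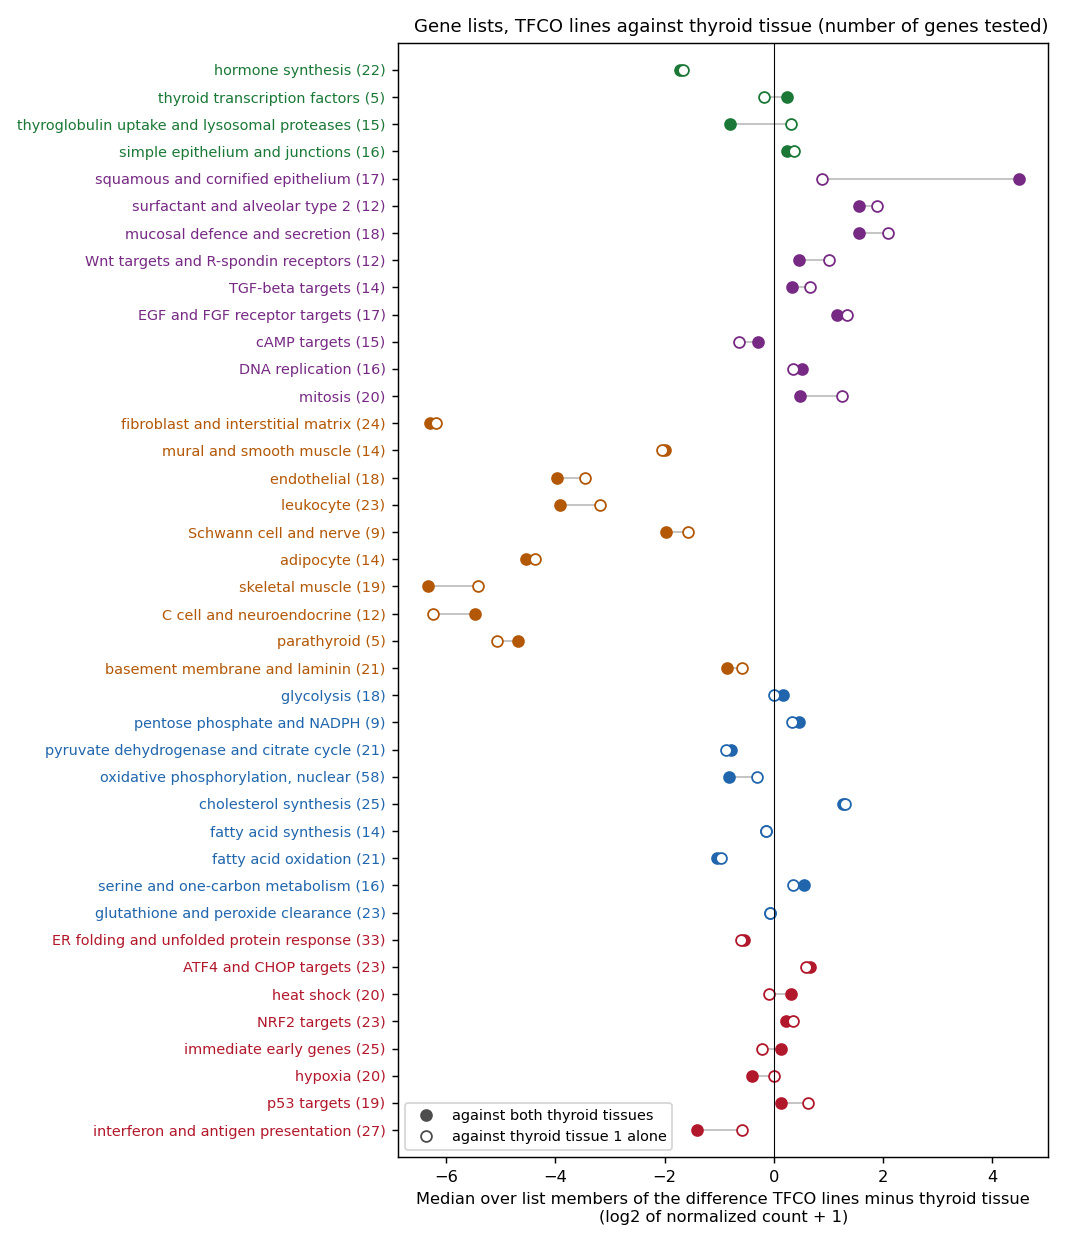
Median log2 difference, TFCO lines minus thyroid tissue, for each of 40 gene lists, against both thyroid tissues and against thyroid tissue 1 alone. The fibroblast list sat at -6.30 and the skeletal muscle list at -6.34, while the thyroid transcription factors (0.23), glycolysis (0.17) and the simple epithelium list (0.24) lay close to the median of all genes (0.05).

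The genes of hormone synthesis were mostly lower in TFCOs, with large differences between the lines, and few passed the threshold. Of 22 genes tested by limma, 0 rose and 1 fell (4.55% against 3.05% of all genes), and 13 had an unadjusted p under 0.05, as did 2741 of all genes. In 11 of these genes the TFCO libraries were all lower than either tissue, and in 3 they were all higher, against 17.3% and 17.2% of all genes. The median log2 difference was -1.73, and -1.66 against thyroid tissue 1. Dio1, the deiodinase that turns thyroxine into triiodothyronine, had 415, 72.9, 41.6 and 15.7 normalized counts in TFCOs and 2471 and 5990.0 in the tissues. Every TFCO library lay below both tissues, and Dio1 was 56.3-fold lower (log2 difference -5.82, SE 0.96, adjusted p = 0.0246), with an adjusted p of 0.123 against thyroid tissue 1 alone. Dio2, which makes the same conversion inside cells, had 1.41, 0, 17.8 and 1.12 in TFCOs and 87.1 and 84.8 in the tissues (adjusted p = 0.0639).

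Transporter genes of the apical side went in opposite directions. Slc26a4, the anion exchanger pendrin, had 191, 269, 914 and 892 normalized counts in TFCOs against 12.0 and 9.22 in the tissues. Slc5a8, also found on the apical membrane, had 16.9, 7.29, 177 and 293 against 1344 and 1349. Both groups were separate for both genes, but neither passed the threshold (adjusted p = 0.0845 and 0.103), and mThy16 was the line with more of both. Ano1, a calcium-activated chloride channel that also passes iodide, had 429, 1307, 3704 and 3994 in TFCOs and 311 and 420.4 in the tissues, again with mThy16 above mThy14 (adjusted p = 0.16).

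The peroxide and iodide-recycling genes were lower or overlapped. Duoxa2, which brings the dual oxidase Duox2 to the membrane, had 94.2, 308, 15.8 and 39.1 normalized counts in TFCOs and 778 and 1081 in the tissues. Iyd, which recovers iodide from iodotyrosines, had 3806, 8701, 2865 and 2919.8 against 9596 and 13486. Both genes were lower in each TFCO library than in either tissue, with log2 differences of -3.78 (SE 1.05, adjusted p = 0.115) and -1.48 (SE 0.49, adjusted p = 0.176). Across TFCO libraries Iyd ranged from 2865 to 8701 and Duoxa2 from 15.8 to 308. The thyroid hormone transporter Slc16a10 had 12.6, 4.16, 12.9 and 42.5 in TFCOs and 123 and 325 in the tissues, and the groups did not overlap (adjusted p = 0.0601). The extracellular superoxide dismutase Sod3, which makes peroxide from superoxide, ran from 2195 to 44526 in TFCOs and had 557 and 2716 in the tissues, with mThy14 above mThy16 at both passages.

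**Figure D2:**
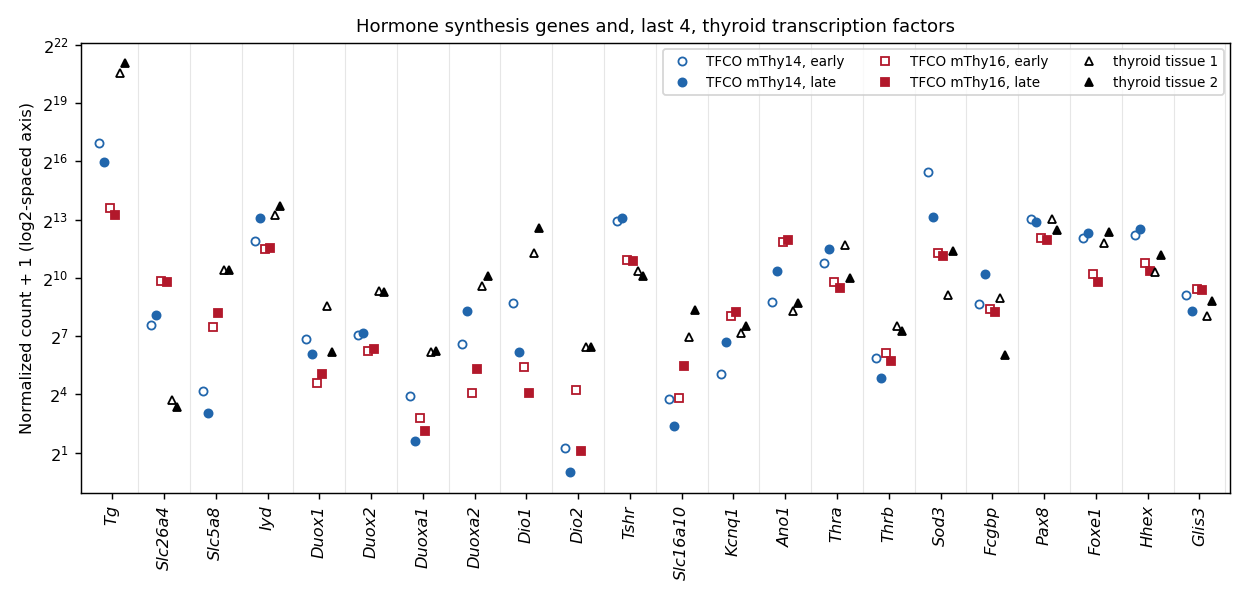
Normalized count + 1, on a log2-spaced axis, of hormone synthesis genes and thyroid transcription factors, with 1 point for each TFCO library and each thyroid tissue. Slc26a4, Ano1 and Tshr sat above both tissues in all 4 TFCO libraries, Dio1 and Tg sat below both, and Pax8, Hhex and Glis3 overlapped them.

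The transcription factors of the lineage overlapped the tissues. Of 5 factors tested, 0 rose and 0 fell by limma (0 had an unadjusted p under 0.05), the TFCO libraries overlapped the tissues in 5 of them, and the median log2 difference was 0.23 (-0.18 against thyroid tissue 1). Glis3, a zinc-finger factor needed for thyroid hormone production, had 545, 310.2, 682 and 672 normalized counts in TFCOs and 263 and 455 in the tissues (log2 difference 0.61, SE 0.50, adjusted p = 0.503). The lines differed more than the groups: the median of mThy14 minus mThy16 was 1.60 over these factors, against 0.04 over all genes.

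Of 15 genes that take up and digest thyroglobulin, 0 rose and 2 fell (13.3% against 3.05% of all genes), and 1 fell against thyroid tissue 1 alone. The genes that fell against both tissues were Ctss and Ctsk, cysteine cathepsins that are also abundant in macrophages and osteoclasts. Ctss had 28.1, 45.8, 33.7 and 33.5 normalized counts in TFCOs and 618 and 816 in the tissues, and was 19.9-fold lower (log2 difference -4.31, SE 0.46, adjusted p = 0.00688). Ctsk had 7.03, 5.20, 0 and 5.59 against 236 and 128 (log2 difference -5.36, SE 0.86, adjusted p = 0.0217). Against thyroid tissue 1 alone Ctss fell and Ctsk did not pass (adjusted p = 0.0659). Leukocyte markers fell in the same comparison, with a list median of -3.92, and their part in these cathepsins was not tested. Other members lay above both tissues without passing the threshold. The legumain gene Lgmn, an asparagine-specific protease, had 3262, 5179, 1998 and 1722 in TFCOs and 599 and 965 in the tissues (log2 difference 1.86, SE 0.50, adjusted p = 0.103), and the cathepsin Ctsh had 11317, 6749.8, 4984 and 4959 and 2849 and 3785 (adjusted p = 0.352). Lrp2, the endocytic receptor megalin, had 1817, 1903, 759.5 and 689.7 and 481 and 948, and the groups overlapped. The list's median changed sign with the tissue: it was -0.80 against both tissues and 0.32 against thyroid tissue 1. Ctsd, an aspartic cathepsin, had 19.6 in thyroid tissue 1, 16898 in thyroid tissue 2 and 0 to 9.37 in TFCOs. It was low in the TFCOs and thyroid tissue 1, which share a library set, and the cause was not tested.

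General epithelial genes lay close to the tissues. Of 16 genes of simple epithelium and junctions, 0 rose and 0 fell by limma (3 had an unadjusted p under 0.05), with a median of 0.24 and 0.36 against thyroid tissue 1. Epcam, an epithelial adhesion molecule, had 11057, 8764, 5497 and 5569 normalized counts in TFCOs and 4600.5 and 5456 in the tissues. Cdh16, a cadherin known from kidney and thyroid epithelium, had 9456, 2961, 4026 and 3072 and 6877 and 11416. For Epcam the TFCO libraries lay above both tissues by a small margin, and for Cdh16 the groups overlapped (adjusted p = 0.529 and 0.233). Krt7, a keratin of simple epithelium, separated the lines instead: mThy14 had 225 and 891, below both tissues at 2196 and 2890.4, and mThy16 had 5319.8 and 5569, above both.

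Most fibroblast genes fell. Of 24 markers tested, 20 fell (83.3% against 3.05% of all genes) and 0 rose, 12 fell against thyroid tissue 1 alone (0.939% of all genes did), and the median was -6.30. The sum of the list ranged from 8713 to 14840.2 normalized counts in TFCOs and from 60756 to 67237 in the tissues. Col3a1, a fibrillar collagen of loose connective tissue, had 26.7, 10.4, 8.91 and 8.94 in TFCOs and 9519 and 10403 in the tissues (log2 difference -9.55, SE 0.51, adjusted p = 0.000976). Dcn, the collagen-binding proteoglycan decorin, had 29.5, 0, 22.8 and 6.71 and 4228 and 5855 (adjusted p = 0.00134). Bgn, the related biglycan, had 23.9, 8.33, 9.90 and 10.1 and 2691 and 2817 and the smallest adjusted p of all genes called (0.000931). The defining fibroblast receptor gene Pdgfra had 12.6, 20.8, 14.9 and 11.2 and 287 and 701 (adjusted p = 0.00739), and lumican, Lum, was listed at 0 in every TFCO library against 950.4 and 1169 in the tissues (adjusted p = 0.00151). These genes were at low values or at 0 in both passages of both lines, and all 5 also fell against thyroid tissue 1 alone.

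Of the 24 fibroblast and matrix genes, 4 did not pass the threshold: Fn1, Sparc, Col5a1 and Col14a1. Fn1, fibronectin, had 5536, 7189, 4422 and 4865 normalized counts in TFCOs and 1723 and 1749.9 in the tissues, so that every TFCO library lay above both tissues (log2 difference 1.64, SE 0.41, adjusted p = 0.0849). Sparc, a matrix glycoprotein, had 6960.1, 6879.9, 3152 and 2235 and 13498 and 14331 (adjusted p = 0.235). Col5a1 had 1185, 484, 132 and 139 against 781 and 958, which overlapped. Col14a1 had 16.9 and 38.5 in mThy14 and 903 and 970.3 in mThy16, on either side of the tissues at 565 and 828. Vim, the intermediate filament vimentin, was in contrast among the genes that fell, with 14.1, 6.25, 61.4 and 74.9 against 2313 and 2301 (adjusted p = 0.00963, and 0.0702 against thyroid tissue 1 alone).

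**Figure D3:**
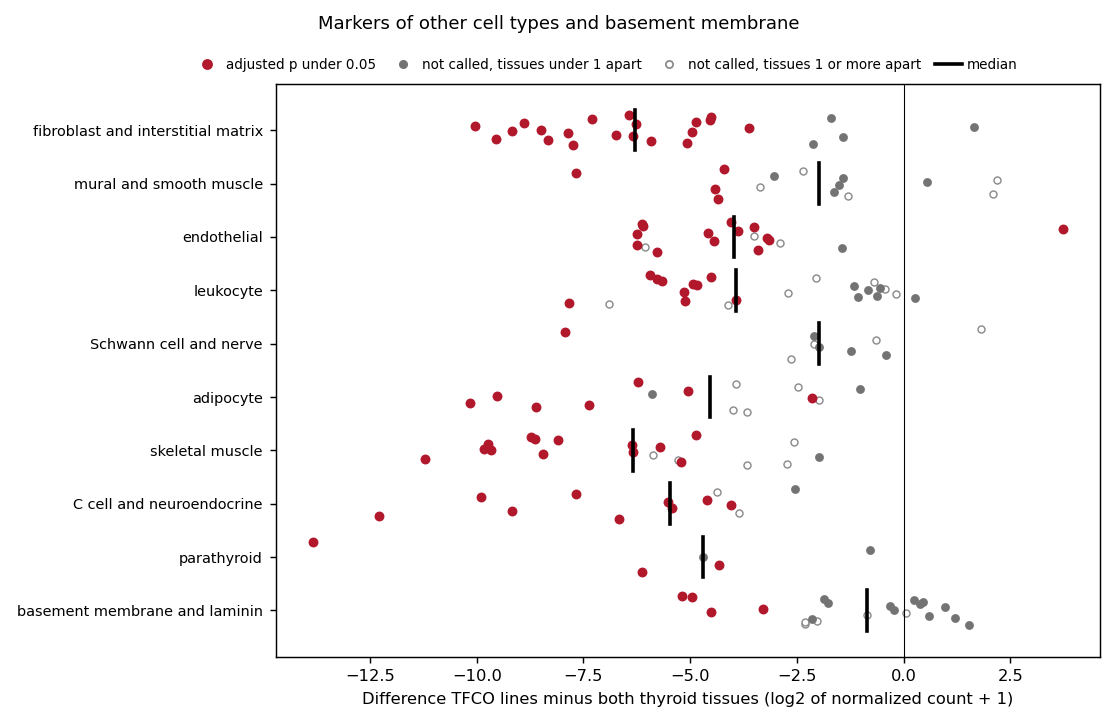
Log2 difference of single marker genes, TFCO lines minus thyroid tissue, for lists of other cell types and of basement membrane, with a bar at each list median, genes past an adjusted p of 0.05 in red, other genes whose tissues lay under 1 apart filled in grey, and other genes whose tissues lay 1 or more apart open. Across the 9 lists of other cell types, 80 of 138 markers fell (46 against thyroid tissue 1 alone) and 1, Sox17, rose.

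Vessel and blood cell markers fell too, where 3.05% of all genes fell and 0.599% rose. Of 18 endothelial markers, 13 fell (7 against thyroid tissue 1 alone) and 1 rose, with a median of -3.97 (-3.46 against thyroid tissue 1). Tie1, an endothelial receptor kinase, had 40.8, 2.08, 14.9 and 23.5 normalized counts in TFCOs and 1134 and 968 in the tissues (log2 difference -6.13, SE 0.47, adjusted p = 0.00207). Vwf, which encodes von Willebrand factor, had 23.9, 15.6, 20.8 and 16.8 and 291 and 374 (adjusted p = 0.00514). The marker that rose was Sox17, a transcription factor of endoderm as well as of arterial endothelium, with 1862, 333, 1068 and 1186 in TFCOs and 57.7 and 84.8 in the tissues (log2 difference 3.73, SE 0.60, adjusted p = 0.0215, and 0.0763 against thyroid tissue 1 alone). Of 23 leukocyte markers 10 fell and 0 rose, but against thyroid tissue 1 alone 2 fell. Laptm5, a lysosomal membrane protein of blood cells, had 12.6, 4.16, 2.97 and 16.8 and 343 and 529 (adjusted p = 0.00441), and Csf1r, the macrophage growth factor receptor, had 7.03, 27.1, 27.7 and 42.5 and 559.5 and 769.8 (adjusted p = 0.00781). Tie1, Vwf and Laptm5 also fell against thyroid tissue 1 alone, and Csf1r did not pass there (adjusted p = 0.0559). The T and B cell genes of the list were low in every library: Cd3e had 12.0 and 8.30 in the tissues and 8.43, 8.33, 2.97 and 1.12 in TFCOs.

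Contractile genes divided. Of 14 mural and smooth muscle markers 4 fell and 0 rose, and 1, Rgs5, fell against thyroid tissue 1 alone. Rgs5, a regulator of G protein signalling in pericytes, had 4.22, 10.4, 21.8 and 1.12 normalized counts in TFCOs and 575 and 3870.4 in the tissues (log2 difference -7.67, SE 0.89, adjusted p = 0.00849). Myh11 and Myl9, which encode the heavy and a light chain of smooth muscle myosin, did not pass the threshold: Myh11 had 1103, 1069, 1668 and 1470.0 and 1206 and 668, and Myl9 had 4696, 5215, 7567 and 7210.2 and 4552 and 388 (adjusted p = 0.644 and 0.323). The groups overlapped for Myh11, and thyroid tissue 2 alone was low for Myl9. Of 9 Schwann cell and nerve genes, S100b fell, with 0, 0, 4.95 and 10.1 in TFCOs and 352 and 1352 in the tissues (adjusted p = 0.019, and 0.0862 against thyroid tissue 1 alone), and the list median was -1.98.

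C cell, parathyroid, muscle and fat genes made up most of the largest falls. Calls in their lists are to be read against 3.05% of all genes that fell. The 10 genes with the largest fall under the naming rule were Pth, Calca, Ckm, Sparcl1, Fabp4, Lum, Scg2, Myl1, Pvalb and Myh4. Of 12 C cell and neuroendocrine genes 9 fell (5 against thyroid tissue 1 alone), with a summed level from 228 to 309 normalized counts in TFCOs and from 55062 to 80726 in the tissues. Chga, the granule protein chromogranin A, had 84.3, 49.96, 15.8 and 35.8 and 18303 and 29918 (log2 difference -9.17, SE 0.68, adjusted p = 0.00188). Calcb, a calcitonin-related gene, did not pass the threshold against both tissues, with 2895 in thyroid tissue 1 and 1.84 in thyroid tissue 2. Of 5 parathyroid genes 3 fell (3 against thyroid tissue 1 alone), among them the calcium-sensing receptor Casr, with 18.3, 18.7, 7.92 and 4.47 in TFCOs and 1286 and 522 in the tissues (adjusted p = 0.0192).

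Skeletal muscle genes fell, where 3.05% of all genes did, and their summed level differed between the tissues. The tissues lay 1 or more apart on the log2 scale for 17 of the 19 genes (89.5%). They belong to different library sets, and the cause of their difference was not tested. Of 19 skeletal muscle genes 13 fell (10 against thyroid tissue 1 alone), the summed level ranged from 4323 to 5879 normalized counts in TFCOs, and it was 87753 in thyroid tissue 1 and 261290.5 in thyroid tissue 2. Tnnt3, the troponin T of fast muscle, had 26.7, 26.0, 40.6 and 11.2 in TFCOs and 5493 and 20016 in the tissues (adjusted p = 0.00592). The myosin heavy chains Myh1 and Myh2 also fell (adjusted p = 0.00688 and 0.00954), and as near-identical genes they can share reads. Tnnt3 and Myh2 also fell against thyroid tissue 1 alone, and Myh1 did not pass there (adjusted p = 0.053). Of 14 adipocyte genes 7 fell (6 against thyroid tissue 1 alone). Ucp1, the uncoupling protein of brown fat, had 33.7, 4.16, 18.8 and 4.47 and 614 and 1246 (log2 difference -6.21, SE 0.86, adjusted p = 0.0139). Lpl, lipoprotein lipase, had 0, 3.12, 26.7 and 4.47 and 2772 and 4963 (adjusted p = 0.00425), and both genes also fell against thyroid tissue 1 alone. The adipokine Adipoq was at 3.27 in thyroid tissue 1 and at 1142 in thyroid tissue 2, and did not pass.

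The basement membrane list, which both epithelium and stroma make, was split between chains. In it 19.0% fell, against 3.05% of all genes. Of 21 genes 4 fell and 0 rose (1, Lama2, fell against thyroid tissue 1 alone), with a median of -0.85. The genes that fell were the laminin chains Lama2 and Lama4 and the linker proteins Nid1 and Nid2. Nid1 had 32.3, 20.8, 72.3 and 73.8 normalized counts in TFCOs and 1032 and 1846 in the tissues (log2 difference -4.95, SE 0.68, adjusted p = 0.0133, and 0.0862 against thyroid tissue 1 alone). Lama2, the laminin chain of muscle and nerve, had 40.8, 11.4, 9.90 and 15.7 and 371 and 425 (adjusted p = 0.00849). The epithelial chain Lama5 overlapped the tissues, with 2301, 1832, 3516 and 4132 and 1046 and 1967. Among type IV collagens, Col4a5 lay above both tissues in every TFCO library, with 2568, 4294, 3474 and 3805 and 1792 and 1254 (adjusted p = 0.149), and Col4a1 lay below both, with 1775, 504, 1396 and 1402 and 3669 and 8794 (adjusted p = 0.103).

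Genes known from lung and squamous epithelium were among the largest rises. The 10 genes with the largest rise were Sprr2g, Sftpd, Sprr2f, Sprr2e, Pthlh, Sftpb, Lhx2, Slc34a2, Dlx5 and Kng1. The surfactant and squamous lists were chosen with earlier results of these data known, so their shares are not tests. Of 12 genes of surfactant and alveolar type 2 cells 4 rose (33.3% against 0.599% of all genes) and 0 fell, and 3 rose against thyroid tissue 1 alone. Sftpb, the surfactant protein B, had 28177, 1475, 3031 and 2066 normalized counts in TFCOs and 25.0 and 28.6 in the tissues (log2 difference 7.18, SE 0.52, adjusted p = 0.00177). Slc34a2, a sodium phosphate cotransporter, had 11119, 970.1, 4151 and 3824 and 9.80 and 70.1 (adjusted p = 0.00781). The early mThy14 library was the highest for both genes, and even the lowest TFCO library lay far above the higher tissue. Sftpc, the protein that defines alveolar type 2 cells, had 7.03, 266, 35.7 and 13.4 in TFCOs and 9.80 and 5.53 in the tissues, highest in late mThy14 and with the groups overlapping, and Lamp3 was at 0, 2.08, 14.9 and 0 and 5.44 and 0.922. Etv5, which is also a target of FGF signals, had 4649, 3111, 4176 and 3451 and 829.5 and 587 (log2 difference 2.44, SE 0.37, adjusted p = 0.0189). Sftpb and Slc34a2 also rose against thyroid tissue 1 alone, and Etv5 did not pass there (adjusted p = 0.0699).

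Genes of the small proline-rich Sprr2 family, which encode proteins of the cornified envelope, rose. In the squamous list the share that rose was 17.6%, against 0.599% of all genes. Of 17 squamous genes 3 rose and 0 fell, and 3 rose against thyroid tissue 1 alone. Sprr2e had 1404, 375, 971 and 596 normalized counts in TFCOs and 10.9 and 0 in the tissues (adjusted p = 0.025), and Sprr2f had 709.8, 131, 456 and 314 and 1.09 and 0 (adjusted p = 0.0094). The Sprr2 genes are near-identical copies, so that the split of reads between them is uncertain. The basal keratin Krt14 had 339, 258, 596 and 539 in TFCOs, 263 in thyroid tissue 1 and was listed at 0 in thyroid tissue 2. Krt6a showed the same pattern, with 536, 849, 2732 and 2817 in TFCOs, 687 in thyroid tissue 1 and 0 in thyroid tissue 2. The list median was 4.49 against both tissues and 0.88 against thyroid tissue 1, and the tissues lay 1 or more apart for 13 of the 17 genes (76.5%, against 45.6% of all genes).

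Mucosal defence genes separated the lines. In this list 5.56% rose and 11.1% fell, against 0.599% and 3.05% of all genes. Of 18 tested 1 rose and 2 fell, and none of these 3 passed against thyroid tissue 1 alone (adjusted p from 0.0539 to 0.15). Clu, the secreted chaperone clusterin, rose, with 5316, 12163, 62331 and 57847 normalized counts in TFCOs and 821 and 1213 in the tissues (log2 difference 4.46, SE 0.90, adjusted p = 0.046). Bpifa1 and Agr2, products of secretory airway cells, fell: Agr2 had 60.4, 0, 6.93 and 5.59 and 198 and 200.1 (adjusted p = 0.0248), and Bpifa1 had 2.81, 2.08, 0 and 0 and 46.8 and 1125 (adjusted p = 0.0477). Lactoferrin, Ltf, had 33.7 and 405 in mThy14 and 52989 and 55098 in mThy16, against 83.8 and 1605 in the tissues, and Lcn2, an iron-trapping lipocalin, had 101 and 229 and 4284 and 5129.9 against 13.1 and 7.38. Neither passed the threshold (adjusted p = 0.558 and 0.0668). The median of mThy14 minus mThy16 was -2.22 over the list.

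The remaining genes among the largest rises lay outside the lists. The homeobox factor Dlx5 had 364, 133, 185 and 180.0 normalized counts in TFCOs and 0 and 1.84 in the tissues (adjusted p = 0.0157), and the LIM homeobox factor Lhx2 had 498, 362, 160.4 and 114 and 2.18 and 0 (adjusted p = 0.0211). Kininogen, Kng1, had 977, 147, 290.2 and 348 and 7.62 and 0 (adjusted p = 0.033). Against thyroid tissue 1 alone Dlx5 rose, and Lhx2 and Kng1 did not pass (adjusted p = 0.0584 and 0.053). Tissue values were near 0 for all of these, so that their folds rest on the pseudocount.

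Targets of the signals in the medium held calls in both directions against both tissues, and none of the genes called in them passed against thyroid tissue 1 alone (adjusted p from 0.0559 to 0.125 for the 5 of the Wnt, EGF and FGF, and TGF-beta lists). Among Wnt targets, 1 of 12 rose (8.33%, against 0.599% of all genes) and 1 fell (8.33%, against 3.05%). Notum, a secreted Wnt inhibitor, rose, with 539.7, 282, 1239.8 and 1149 normalized counts in TFCOs and 75.1 and 19.4 in the tissues (log2 difference 4.12, SE 0.82, adjusted p = 0.045), and Nkd1, an intracellular Wnt inhibitor, fell, with 642, 137, 237 and 206 and 1759 and 1187 (log2 difference -2.49, SE 0.39, adjusted p = 0.0201). Axin2, a widely used Wnt readout, lay above both tissues in every TFCO library, with 173, 343, 577 and 599 and 74.0 and 101 (adjusted p = 0.0981). The R-spondin receptor Lgr5 differed between the lines, with 0 and 1.04 in mThy14 and 263 and 199 in mThy16, against 2.18 and 0 in the tissues. Among EGF and FGF receptor targets, 1 of 17 rose (Etv5, 5.88%) and 1 fell (Spry4, 5.88%), with a median of 1.16. Spry4, a feedback inhibitor, had 42.2, 7.29, 18.8 and 25.7 and 132 and 251 (adjusted p = 0.0496). Among TGF-beta targets 1 of 14 rose (7.14%), the matrix protein Tgfbi, and 0 fell. Tgfbi had 48676, 11218, 5633 and 5279.6 and 609.6 and 663 (log2 difference 4.15, SE 0.69, adjusted p = 0.0246). Ccn2 had 59121, 71828, 29426 and 25691 and 5531 and 6748 (adjusted p = 0.0539).

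Among cAMP targets 3 of 15 fell and 0 rose, where 3.05% of all genes fell. None of the 3 passed against thyroid tissue 1 alone, where the adjusted p was 0.0584 for Rgs2, 0.0731 for Fosb and 0.0552 for Pck1. Pck1, the cytosolic enzyme that starts gluconeogenesis and is abundant in fat and kidney, had 23.9, 31.2, 8.91 and 31.3 normalized counts in TFCOs and 2014 and 1394 in the tissues (log2 difference -6.22, SE 0.74, adjusted p = 0.00899). Fosb, an immediate early transcription factor, had 88.5, 125.9, 118 and 118 and 708 and 911 (log2 difference -2.83, SE 0.44, adjusted p = 0.0201). Rgs2 had 71.7, 10.4, 68.3 and 44.7 and 528 and 449 (adjusted p = 0.0133). The phosphodiesterase Pde4b, which breaks down cAMP, lay above both tissues instead, with 509, 1461, 754 and 777 and 150.2 and 391 (adjusted p = 0.173), and Crem lay just below both, with 316, 243, 184 and 252 and 335 and 333. Adipocyte markers fell with a median of -4.53 in the same comparison, and their part in the change of Pck1 was not tested.

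The promoters of Fosb, Pck1 and Rgs2 are shown because they are the cAMP targets that fell, and all 3 hold the core letters of the cAMP response element close to their start. The sequences are the 250 bases upstream of the annotated start, from RefSeq on GRCm38.p6, written 5′ to 3′ along the gene's strand (chr7:19310046-19310295, minus strand, for Fosb, chr2:173152823-173153072, plus strand, for Pck1, and chr1:144004150-144004399, minus strand, for Rgs2), with capitals marking each TGACG or its reverse complement CGTCA.
Fosb: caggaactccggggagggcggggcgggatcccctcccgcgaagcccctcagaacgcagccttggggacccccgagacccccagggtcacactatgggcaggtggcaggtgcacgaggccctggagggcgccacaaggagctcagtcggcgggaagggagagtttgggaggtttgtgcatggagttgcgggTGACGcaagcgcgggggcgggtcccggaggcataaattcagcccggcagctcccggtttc
Pck1: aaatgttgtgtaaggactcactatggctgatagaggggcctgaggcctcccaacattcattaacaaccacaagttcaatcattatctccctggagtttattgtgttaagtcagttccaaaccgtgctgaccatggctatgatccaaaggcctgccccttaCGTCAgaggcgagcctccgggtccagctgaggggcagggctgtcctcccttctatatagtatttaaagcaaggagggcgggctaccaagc
Rgs2: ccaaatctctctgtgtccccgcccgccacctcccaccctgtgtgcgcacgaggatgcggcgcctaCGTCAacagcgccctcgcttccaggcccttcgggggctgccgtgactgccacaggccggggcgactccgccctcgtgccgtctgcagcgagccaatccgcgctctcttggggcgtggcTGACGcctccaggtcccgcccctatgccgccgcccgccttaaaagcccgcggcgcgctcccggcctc
TGACG, searched on both strands, stood in this window of 11 of the 13 cAMP targets with a promoter sequence (84.6%) and of 5347 of 27025 genes (19.8%). The targets were listed for their response to cAMP, so this share was not a test. The letters also stood in members that did not fall, such as Pde4b, and the match describes the letters only.

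Most proliferation genes overlapped the tissues and stood apart between the TFCO libraries. Of 16 DNA replication genes and 20 mitosis genes, 0 rose and 0 fell by limma (1 and 0 had an unadjusted p under 0.05). Top2a, the topoisomerase of dividing cells, had 753, 138, 1839 and 1991 normalized counts in TFCOs and 148 and 316 in the tissues. Cdk1, the mitotic kinase, had 235, 12.5, 366 and 427 and 64.2 and 161. For both genes late mThy14 lay below both tissues and the other 3 TFCO libraries lay above both. The median of mThy14 minus mThy16 was -2.25 over the mitosis genes. The passages of mThy14 stood apart, with list sums of 3673 normalized counts early and 480 late, against 6839 and 7246 in mThy16.

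Of 205 entries tested in 9 metabolic lists, 2 rose and 4 fell (2.93% in all, against 3.65% of all genes). Glycolysis lay close to the tissues, with a median of 0.17 over 18 genes (-0.01 against thyroid tissue 1) and 0 calls by limma (1 unadjusted). Pkm, pyruvate kinase, had 13811, 9399.8, 21656 and 21862 normalized counts in TFCOs and 13773 and 8703 in the tissues (log2 difference 0.52, SE 0.53, adjusted p = 0.588). The pentose phosphate list had a median of 0.47 and 0 calls by limma (0 unadjusted).

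Most genes of the citrate cycle and of fatty acid oxidation had a negative log2 difference, though 0 genes of either list passed by limma (10 and 12 had an unadjusted p under 0.05). All 21 genes of pyruvate dehydrogenase and the citrate cycle had a negative log2 difference, with a median of -0.78 (-0.87 against thyroid tissue 1), and in 15 (71.4%, against 17.3% of all genes) every TFCO library lay below both tissues. Sucla2, a subunit of succinyl-CoA synthetase, had 930.5, 1189.7, 1183 and 1216 normalized counts in TFCOs and 2686 and 2629 in the tissues (log2 difference -1.24, SE 0.31, adjusted p = 0.0888). The fatty acid oxidation list had a median of -1.05 over 21 genes, 19 of them with a negative log2 difference and 16 below both tissues in every TFCO library (76.2%). Acadl, an acyl-CoA dehydrogenase, had 849, 983, 992 and 1091 and 2834 and 3335 (log2 difference -1.66, SE 0.35, adjusted p = 0.0539). Muscle and fat are rich in both pathways, and their markers fell in the same comparison, with medians of -6.34 and -4.53, and the part of these cells in the result was not tested.

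Genes of oxidative phosphorylation depended on which tissue was used. Over 58 nuclear genes the median was -0.83 against both tissues and -0.32 against thyroid tissue 1, with 0 calls by limma (4 unadjusted). The tissues lay 1 or more apart for 32 of them (55.2%), against 2 of 21 citrate cycle genes (9.52%). Uqcr11, a small subunit of complex III, had 9.84, 6.25, 5.94 and 7.83 normalized counts in TFCOs, 6.53 in thyroid tissue 1 and 1888 in thyroid tissue 2. It too was low in the TFCOs and thyroid tissue 1, which share a library set, and the cause was not tested. Cox6b1, a subunit of complex IV, was level in all, with 2641, 2877, 3105 and 3001 and 3011 and 2789. Over the 26 genes whose tissues lay under 1 apart the median was -0.37, a split chosen after the data were seen.

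**Figure D4:**
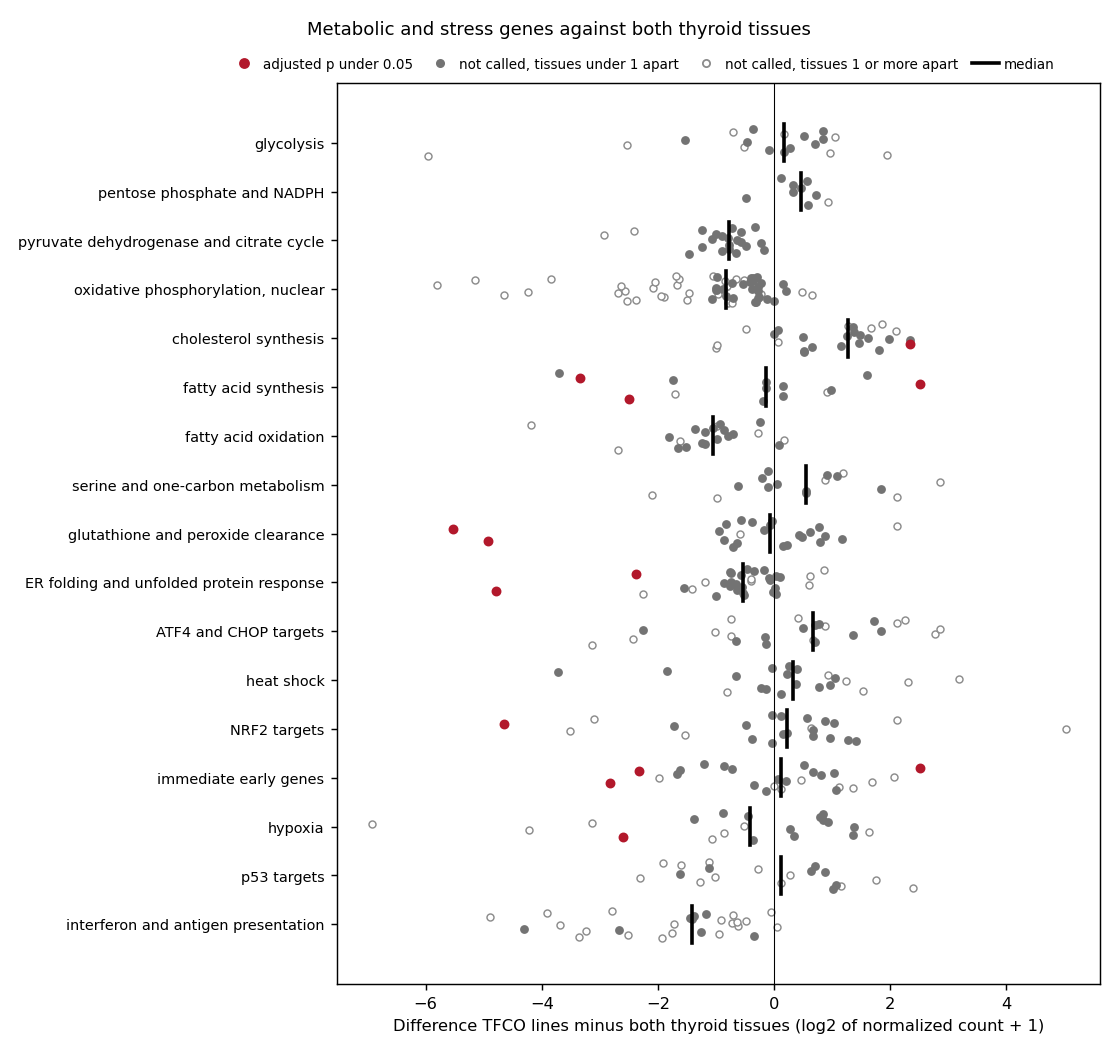
Log2 difference of single genes, TFCO lines minus thyroid tissue, for metabolic and stress lists, with genes past an adjusted p of 0.05 in red, other genes whose tissues lay under 1 apart filled in grey, and other genes whose tissues lay 1 or more apart open. The cholesterol list centred at 1.27, the citrate cycle list at -0.78 and the fatty acid oxidation list at -1.05.

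Cholesterol synthesis leaned the other way. Of 25 genes 1 rose and 0 fell, 21 had a positive log2 difference, and the median was 1.27 (1.30 against thyroid tissue 1). Idi1, an isomerase of the pathway, was not the gene that rose and did not pass the threshold. It had 528, 178, 267 and 428 normalized counts in TFCOs and 79.5 and 49.8 in the tissues (log2 difference 2.34, SE 0.51, adjusted p = 0.0563). Every TFCO library lay above both tissues, with early mThy14 the highest and late mThy14 the lowest. Of the fatty acid synthesis genes, 1 of 14 rose (7.14%) and 2 fell (14.3%, against 3.05% of all genes). The desaturase Fads2 rose, with 3325, 1530.0, 3351 and 3369 and 708 and 325 (adjusted p = 0.0336). Acacb, the acetyl-CoA carboxylase of muscle and other oxidative tissue, fell, with 274, 212, 127 and 92.8 and 1052 and 807 (adjusted p = 0.043), as did the carbohydrate response factor Mlxipl, with 47.8, 30.2, 29.7 and 42.5 and 514 and 284 (adjusted p = 0.0488). None of these 3 passed against thyroid tissue 1 alone (adjusted p = 0.0821, 0.105 and 0.0687). Fatty acid synthase, Fasn, overlapped, with 14706, 7519, 7259 and 5957 and 8259 and 10057.

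Serine synthesis and peroxide clearance were described by single genes. Calls in these lists are to be read against 0.599% of all genes higher and 3.05% lower. In the serine and one-carbon list 0 of 16 genes rose and 0 fell by limma (3 had an unadjusted p under 0.05), with a median of 0.55. Phgdh, the first enzyme of serine synthesis, lay above both tissues in every TFCO library, with 1129, 1402, 4135 and 4107 normalized counts and 519 and 189 (log2 difference 2.86, SE 0.78, adjusted p = 0.106). In the glutathione list 0 of 23 rose and 2 fell (1, Gpx3, against thyroid tissue 1 alone), both of them selenoproteins that are secreted. Gpx3, the extracellular glutathione peroxidase, had 339, 57.2, 129.7 and 95.0 and 3521 and 4135, and was 30.4-fold lower (log2 difference -4.93, SE 0.38, adjusted p = 0.00207), with an adjusted p of 0.0304 against thyroid tissue 1 alone. Selenop, the selenium carrier, had 61.8, 72.9, 21.8 and 11.2 and 516 and 4702 (adjusted p = 0.039, and 0.107 against thyroid tissue 1 alone). Among intracellular members, Gpx1 lay below both tissues in every TFCO library, with 1576, 1489, 1875 and 1604 and 2407 and 2681, and Prdx1 lay above both, with 13861, 11848, 13112 and 14351 and 7673 and 6776 (adjusted p = 0.407 and 0.357).

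Of 190 entries tested in 8 stress lists, 1 rose and 6 fell (3.68% in all, against 3.65% of all genes). In the list of endoplasmic reticulum folding and the unfolded protein response, 2 of 33 fell (6.06%, against 3.05% of all genes) and 0 rose. The median was -0.54 (-0.60 against thyroid tissue 1). Sdf2l1, an endoplasmic reticulum chaperone partner, had 954, 202, 289 and 304 normalized counts in TFCOs and 1876 and 1876 in the tissues (log2 difference -2.37, SE 0.37, adjusted p = 0.0202). Derl3, which takes part in the removal of misfolded proteins, had 45.0, 25.0, 45.6 and 3.35 and 425 and 882 (log2 difference -4.79, SE 0.78, adjusted p = 0.0236). Neither passed against thyroid tissue 1 alone (adjusted p = 0.072 and 0.0791). The main chaperone of the compartment, Hspa5, overlapped, with 41447, 21913, 20507 and 23009 and 54926 and 20895 (log2 difference -0.40, SE 0.72, adjusted p = 0.766). Thyroid tissue 1 was the highest library for Hspa5 and thyroid tissue 2 was among the lowest.

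The promoters of Hspa5 and Derl3 are shown because both carry the endoplasmic reticulum stress element, and Derl3 fell while Hspa5 overlapped the tissues. The sequences are again the 250 bases upstream of the start from RefSeq on GRCm38.p6 (chr2:34771840-34772089, plus strand, for Hspa5, and chr10:75893148-75893397, plus strand, for Derl3), with the element in capitals.
Hspa5: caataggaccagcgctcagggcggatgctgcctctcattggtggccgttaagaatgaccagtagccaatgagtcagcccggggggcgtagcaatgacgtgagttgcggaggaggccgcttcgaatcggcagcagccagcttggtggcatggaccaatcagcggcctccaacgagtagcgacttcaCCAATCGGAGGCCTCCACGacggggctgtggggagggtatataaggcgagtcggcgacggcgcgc
Derl3: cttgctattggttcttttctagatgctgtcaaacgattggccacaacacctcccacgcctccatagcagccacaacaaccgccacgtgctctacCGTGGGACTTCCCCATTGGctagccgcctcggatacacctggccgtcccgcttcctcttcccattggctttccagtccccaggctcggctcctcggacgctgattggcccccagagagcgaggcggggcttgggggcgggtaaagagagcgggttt
The element, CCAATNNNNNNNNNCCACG searched on both strands, stood in 10 of the 29 genes of the folding list with a promoter sequence (34.5%) and in 35 of 27025 genes (0.130%). Sdf2l1, the other gene of the list that fell, did not hold it in this window. The list was chosen for genes of this response, so its share was not a test, and the match describes the letters only.

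The other stress lists had medians between -1.42 and 0.66. Their calls are to be read against 0.599% of all genes higher and 3.05% lower. Among ATF4 and CHOP targets 0 of 23 rose and 0 fell by limma (6 unadjusted). Stc2, a secreted glycoprotein of the integrated stress response, had 564, 1096, 1576 and 1589.6 normalized counts in TFCOs and 158 and 346 in the tissues (log2 difference 2.25, SE 0.57, adjusted p = 0.0888), while Ddit3, which encodes CHOP itself, had 205, 258, 129 and 88.3 and 376 and 184 and overlapped. In the heat shock list 0 of 20 rose and 0 fell by limma (3 unadjusted). Hspa8, the constitutive cytosolic chaperone, had 32938, 29022, 37666 and 39871 and 30408 and 10748, and the inducible Hspa1a, whose reads can be shared with its copy Hspa1b, had 3822, 5319, 4606 and 4641, 5150.2 in thyroid tissue 1 and 166 in thyroid tissue 2. Among NRF2 targets 1 of 23 fell, the quinone reductase Nqo1 with 1.41, 11.4, 3.96 and 15.7 and 142 and 221 (log2 difference -4.66, SE 0.85, adjusted p = 0.0343, and 0.0996 against thyroid tissue 1 alone), while the glutamate-cysteine ligase subunit Gclm had 613, 962, 1054 and 1132 and 899 and 682 (adjusted p = 0.732).

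Immediate early, hypoxia and p53 genes gave 4 calls. Of 25 immediate early genes 1 rose and 2 fell. Myc, a growth-promoting transcription factor, rose, with 1172, 1983, 1874 and 1614 normalized counts in TFCOs and 439.8 and 182 in the tissues (log2 difference 2.52, SE 0.52, adjusted p = 0.0494, and 0.104 against thyroid tissue 1 alone). Beside Fosb the gene that fell was Klf2, a factor also known from endothelium under flow, with 126.5, 198, 137 and 72.7 and 452 and 887 (adjusted p = 0.0433, and 0.121 against thyroid tissue 1 alone). Fos and Egr1 overlapped the tissues, with 2582, 2063, 3235 and 3133 against 4510.1 and 2610.1 and 16975, 8943, 4280.0 and 3066 against 4061 and 1666. Of 20 hypoxia genes 1 fell, the mitophagy receptor Bnip3 with 322, 267, 161 and 226 and 1130.0 and 1823 (log2 difference -2.59, SE 0.50, adjusted p = 0.0413, and 0.154 against thyroid tissue 1 alone), while Vegfa had 16573, 8444, 6024 and 4742 and 20003 and 10620.1. Of 19 p53 targets 0 rose and 0 fell by limma (3 unadjusted). Bax, which opens mitochondria in cell death, had 2333 and 1991 in mThy14 and 6827 and 6978 in mThy16 against 1182 and 449.9 in the tissues (adjusted p = 0.108).

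Interferon and antigen presentation genes had a median of -1.42 over 27 genes, and -0.58 against thyroid tissue 1, with 0 calls by limma (11 unadjusted). B2m, the light chain of class I molecules, had 1667, 1187, 1837 and 2199.9 normalized counts in TFCOs and 4295 and 9483 in the tissues (log2 difference -1.92, SE 0.50, adjusted p = 0.0983). Every TFCO library lay below both tissues. Leukocyte markers fell in the same comparison, with a sum from 420.5 to 779 in TFCOs and from 5111 to 13539 in the tissues, and their part was not tested. The tissues lay 1 or more apart for 19 of the 27 genes (70.4%).

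The lines differed in how far they stood from the tissue. The median of mThy14 minus mThy16 was 1.06 for hormone synthesis, 1.05 for thyroglobulin uptake and 1.60 for the transcription factors, and it was -1.35 for p53 targets, -0.97 for DNA replication and -1.17 for TGF-beta targets, against 0.04 over all genes. In hormone synthesis the median against the tissues was -1.32 in mThy14 and -2.26 in mThy16. There were 2 lines, each from 1 animal, so that a line and its animal cannot be told apart, and these differences were not tested.

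**Figure D5:**
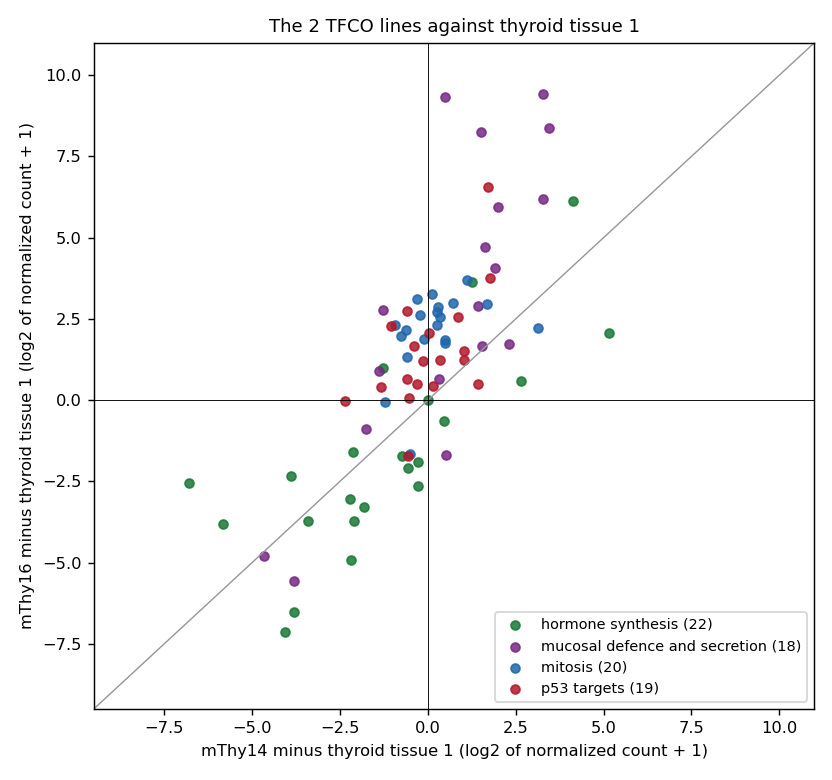
Log2 difference of single genes to thyroid tissue 1, mThy14 on the horizontal and mThy16 on the vertical axis, for the lists of hormone synthesis, mucosal defence, mitosis and p53 targets, with a diagonal where both lines are equal. Most mucosal, mitosis and p53 genes lay above the diagonal, that is, higher in mThy16, with medians of mThy14 minus mThy16 of -2.22, -2.25 and -1.35, and hormone synthesis genes lay mostly below it (1.06). Passages are averaged here: the mitosis list summed to 3673 normalized counts in early and 480 in late mThy14, and to 6839 and 7246 in mThy16.

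Some genes outside the lists and the largest changes were chosen after their values were seen. Among genes that rose, Slc1a1, a glutamate transporter, had 24702, 33901, 5379 and 5818 normalized counts in TFCOs and 160.0 and 211 in the tissues (adjusted p = 0.00849). Ehf and Elf5, ETS factors of epithelium, rose as well, with 1883, 9155, 4729 and 4963 against 183 and 455 (adjusted p = 0.0119) and 2519, 2678, 672 and 656 against 125 and 96.8 (adjusted p = 0.0394). Porcn, which acylates Wnt proteins for secretion, had 2024, 9219.7, 18728 and 12514 and 628 and 194 (adjusted p = 0.0221). Ptprn, known from secretory granules of endocrine cells, had 191098, 21012, 6982 and 7089 and 897 and 411 (adjusted p = 0.0404), unlike the neuroendocrine list, which fell. Among genes that fell, Slc26a7, an anion exchanger used in thyroid iodide transport, had 997, 1216, 249 and 257 and 8331 and 17069 (log2 difference -4.50, SE 0.76, adjusted p = 0.0259). Fgf10, a growth factor that stroma makes and that the medium supplied as protein, had 0, 5.20, 0.990 and 4.47 and 134 and 146 (adjusted p = 0.0112). Aldh1a3, which makes retinoic acid, had 9.84, 6.25, 4.95 and 10.1 and 273 and 297 (adjusted p = 0.0167). Of these genes Ehf, Fgf10 and Aldh1a3 also passed against thyroid tissue 1 alone, and Slc1a1, Elf5, Porcn, Ptprn and Slc26a7 did not (adjusted p = 0.06, 0.154, 0.0996, 0.185 and 0.133).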

How the data were processed

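Bulk RNA of 8 mouse libraries was sequenced: 4 of TFCOs, 2 of thyroid tissue and 2 of lung tissue. Per the methods, the authors read polyA RNA in pairs and used DESeq2, whereas an adapted CEL-Seq protocol stands in the labels. The submitters' processing notes name BWA 0.6.2-r126 and the builds hg38 and mm10 without a role, and the counting tool and annotation are not given in the sources used here. The deposited values are normalized counts (a signal that is never negative), which the authors made by dividing the reads of each gene by 1 size factor per library. All 8 columns were matched to samples by their names, and 0 columns were left over. The libraries held 9755081 to 16904865 reads on genes and 11395091 to 13710990 normalized counts.

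Genes with at least 10 normalized counts in at least 2 libraries were tested (14703 of 16119) on the log2(normalized count + 1) scale. The passages of a line were averaged, and limma 3.58.1 in R 4.3.3 (mean-variance trend, Benjamini-Hochberg adjustment over all genes, threshold 0.05) was fitted with lung tissue in the model, so that the spread came from pairs of lines, thyroid tissues and lung tissues. The same model gave the difference to thyroid tissue 1 alone, where thyroid tissue 2 was left out. There the lone thyroid library was assumed to vary like the other groups. A line number marks an animal, and the difference between the lines correlated at 0.477 across genes between early and late passage, so a fit of the 4 TFCO libraries with the line as a block was an alternative (duplicateCorrelation 0.631). Nothing says that the tissue libraries came from separate animals, so p-values measure only the spread between these samples.

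Members and gene lists were chosen with earlier results of these data known. Listed genes were named freely, beside the 10 largest rises and 10 largest falls among called genes whose groups did not overlap and whose difference to thyroid tissue 1 had the same direction and was at least 1 on the log2 scale. Of the symbols, 15883 matched the reference gene names and 236 did not. Results of some listed genes are not reported here. Alternatives were other pseudocounts, filters, scalings and variance models, and leaving out each library.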

Additional observations from a re-analysis of the deposited data

Results flagged for a closer look

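Of 725 listed genes, 22 had both passages of a line above both thyroid tissues and both passages of the other line below them, so that the lines stood on opposite sides of the tissue. The values are the log2 difference mThy14 minus mThy16. In none of them was the difference between the lines tested, since each line came from 1 animal.

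In 14 genes mThy16 was the line above the tissues. Among genes of the epithelium and its membranes these were the potassium channel gene Kcnq1 (-2.27), Krt7 (-3.60), the laminin chain Lama3 (-2.88) and the transporter gene Abcc1 (-1.52), and among matrix genes Col14a1 (-5.14). Signal targets with this pattern were the Wnt mediator Lef1 (-4.33), the growth factor Tgfb2 (-2.59) and its target Pmepa1 (-1.46). The p53 targets Ccng1 (-2.07) and Plk2 (-3.32) belonged here too, as did the hexokinase Hk2 (-1.68), the glutathione enzyme Gclc (-0.89), the heat shock gene Hsph1 (-2.11) and the hypoxia-responsive peptide gene Adm (-1.74).

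In 8 genes mThy14 was the line above the tissues. Of these, 3 encode enzymes that form disulfides in the endoplasmic reticulum, Pdia5 (2.14), ERO1A (0.85) and ERO1B (1.90). The others were the lipid transporter gene Abca3 (0.89), Tgfb1 (1.61), the immediate early factor Nr4a3 (2.67), the elongase Elovl6 (1.34) and the acyl-CoA dehydrogenase Acads (0.51).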

How the results depend on the processing

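The 536 calls against both tissues were within 1.5 times of that number with a pseudocount of 5 (546) or 0.5 (508), no filter (475), a filter of 50 (541), quantile normalization (462), equal totals (526) and no mean-variance trend (481). They numbered 124 without lung tissue and 1322 with the 4 TFCO libraries as separate samples and no block. With the line as a replicate block they numbered 444, of which 353 were among the 536 in the same direction, and 18 of 76 called genes named in the report lost their call. Leaving out 1 library gave 153 to 4085 calls, the highest without thyroid tissue 1, and leaving out a TFCO library gave 418 to 547. The 161 calls against thyroid tissue 1 alone became 339 with a pseudocount of 5, 75 with 0.5, 308 after quantile normalization and 0 without a filter (limma, 2860 at an unadjusted p under 0.05). Leaving out 1 TFCO library gave 0 to 78, with 0 without late mThy14 (limma, 2308 unadjusted), 6 without early mThy14, 64 without late mThy16 and 78 without early mThy16. The cause was not tested in any of these.

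6 of the alternatives (the variance model, the lung libraries and the separate or blocked TFCO libraries) leave list medians as they are by construction. Of 520 list medians under the other 13, 412 moved by less than the spread between the lines and 100 moved by more. A further 8 turned sign from a main median larger than that spread. Sign changes of smaller medians are within the 412 and the 100. Without thyroid tissue 2, for example, the thyroid transcription factors went from 0.23 to -0.18 and the immediate early genes from 0.13 to -0.21. After quantile normalization the simple epithelium median was -0.066 and glycolysis -0.088. Leaving out 1 library gave -0.31 (without thyroid tissue 1) to 0.36 for simple epithelium, -0.0059 (without thyroid tissue 2) to 0.26 for glycolysis, -0.11 to 0.22 (without thyroid tissue 1) for glutathione, -0.091 (without thyroid tissue 2) to 0.63 for heat shock, and -1.44 to 0.32 (without thyroid tissue 2) for thyroglobulin uptake, which was 0.42 over the 7 members whose tissues lay under 1 apart, an alternative chosen after the data were seen. Among named genes 1, Calcb, turned direction with differences larger than their SE. Its log2 difference went from -8.85 without thyroid tissue 2 to 1.14 without thyroid tissue 1. The planned count tests with edgeR and voom on recovered reads were not run. With 2 lines and 2 tissues, of which thyroid tissue 2 shares its pattern of zeros with lung tissue, small changes were not detectable, and genes near 1 normalized count rest on single reads.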
